A study of Ovis aries with 30 samples.

Results

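The genes described here encode subunits of the oxidative phosphorylation machinery that are made in the nucleus. They were chosen by symbol: NDUFA, NDUFB, NDUFC, NDUFS or NDUFV followed by a number, SDHA to SDHD, and every symbol that starts UQCR, COX4I, COX5, COX6, COX7, COX8, ATP5F1, ATP5M or ATP5P. This gave 60 of the 31304 genes in the count table, of which 36 belong to complex I, 4 to complex II, 1 to complex III, 3 to complex IV and 16 to complex V, the ATP synthase. NDUFA4 and NDUFA4L2 carry a complex I name but were counted with complex IV, where NDUFA4 is known to sit. Complexes III and IV are represented by UQCRH, COX5A and that pair alone, and other subunits of these complexes were not analysed here.

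Oxidative phosphorylation takes place in the inner membrane of the mitochondrion. Complexes I and II pass electrons from NADH and succinate to ubiquinone, complex III passes them on to cytochrome c, and complex IV hands them to oxygen. Complexes I, III and IV pump protons, and the ATP synthase uses the return flow of protons to make ATP. Most subunits are nuclear products that are imported into the mitochondrion, while a small set, complex II excepted, is encoded by the mitochondrial genome. In the liver this supply of ATP serves gluconeogenesis, ureagenesis and the synthesis of plasma proteins.

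The study asked how maternal exposure to biosolids, treated sewage sludge that carries a mixture of environmental chemicals, affects the liver of the offspring. Whole frozen liver of 30 sheep lambs of the first generation (F1) was sequenced: 8 control females, 8 biosolids females, 7 control males and 7 biosolids males. Biosolids lambs were born to ewes exposed before conception and during pregnancy, and control lambs to ewes that were not. The breed and the age of the lambs, their litters, and the dose are not given in the sources used here.

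Total counts per library ranged from 18.7 to 51.9 M (mega-counts). Hepatocyte transcripts were abundant in the liver libraries (ALB at a median of 51640 CPM, or counts per mega-count of the scaled library). The macrophage marker CD68 was listed at 0 in every lamb, and 5 erythroid markers together stayed between 0.197 and 4.21 CPM. A set of 3 libraries stood apart. Ribosomal RNA took 87.5% of the counts of biosolids male 8778, where the other 29 libraries had 0.299 to 7.69%. Its remaining genes shared 2.34 M counts, of which the subunits had 13383. Control female 8263 had the lowest median Spearman correlation with the other libraries (0.943, against 0.947 for biosolids male 8778 and 0.957 for the next). Control male 8408 held 302 CPM of the X-linked non-coding LOC101112291, a level nearer to that of the 16 females (318 to 824 CPM) than to that of the 13 other males (at most 2.05 CPM), beside 18.0 CPM of the Y-linked LOC132659055, which was at most 0.0242 CPM in females.

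All 60 genes matched the RefSeq annotation of assembly ARS-UI_Ramb_v3.0 in position and lie on 19 chromosomes. NDUFA1 and NDUFB11 lie on the X chromosome. They are short: the median exonic length was 911 bases, with a range of 387 to 12880, against 2671.5 bases over all genes in the table. The exons or introns of 14 of them overlap another annotated gene, 13 on the opposite strand, such as NDUFA2 with TMCO6, UQCRH with LRRC41, ATP5PF with GABPA and ATP5MK with TAF5. Whether the shared stretch holds exons of both genes was not examined. Where it does, reads of such pairs may not be told apart, since the strand setting is not given.

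Levels between genes were compared as CPM per kilobase of exonic length, taking the median lamb. This length is the one given with the counts, and whether it matches the transcripts present in liver was not checked. The highest level was that of ATP5F1B (chromosome 3, 163010527 to 163016197, + strand), the catalytic beta subunit of the ATP synthase head, at 320.7 CPM per kilobase. ATP5F1D, the delta subunit of the central stalk (chromosome 5, 41359774 to 41361892, + strand), followed at 229 CPM per kilobase, and SDHA, the flavoprotein that oxidises succinate in complex II (chromosome 16, 71850005 to 71871555, - strand), at 172 CPM per kilobase. The lowest levels among expressed subunits were those of NDUFB1 (1.75 CPM per kilobase), ATP5F1E (1.74) and NDUFS4 (1.40). The place of NDUFS4 rests on its length of 3723 bases. Before division by length it had 5.22 CPM, against 0.937 for NDUFB1 and 0.693 for ATP5F1E. ATP5F1E encodes the epsilon subunit, which sits in the same central stalk as the delta subunit although its measured level was far below. It had 2 to 50 counts per library, and its gene overlaps TUBB1 on the opposite strand. Whether the counting of reads lowered its level was not tested.

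NDUFA4 (chromosome 4, 19908585 to 19915853, - strand) stood at 139.9 CPM per kilobase, whereas its paralogue NDUFA4L2 (chromosome 3, 162372648 to 162387552, + strand) was barely detected. NDUFA4L2 had 0 to 11 counts per library and a median of 0.0974 CPM, overlaps R3HDM2 and STAC3 on its own strand, and was the 1 subunit that did not pass the filter on low counts. The other 59 were tested. The c subunit, which forms the rotor ring of the ATP synthase, is encoded by 3 genes for the same mature peptide. Per kilobase, ATP5MC3 was highest at 83.1 CPM, ATP5MC1 stood at 63.7 and ATP5MC2 at 24.1. Before division by length (697, 983 and 3040 bases) the order was the reverse, at 57.9, 62.6 and 73.2 CPM. The ranking of the 3 genes therefore rests on the length used.

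Within complex I, the 7 core subunits that carry the electron path, such as NDUFV1 and NDUFV2, had a median level of 61.1 CPM per kilobase, and the 29 accessory subunits one of 18.4. The core genes were also longer, with a median of 1516 exonic bases against 659. Complex II ranged from 10.1 CPM per kilobase (SDHD, a membrane anchor) to the 172 of SDHA, and complex V ran from ATP5F1E to ATP5F1B. The low place of SDHD rests on its length of 9956 bases. Before division by length its 100.1 CPM was above the 71.8 CPM of SDHC. The plot of levels by gene shows this order.

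**Figure D1:**
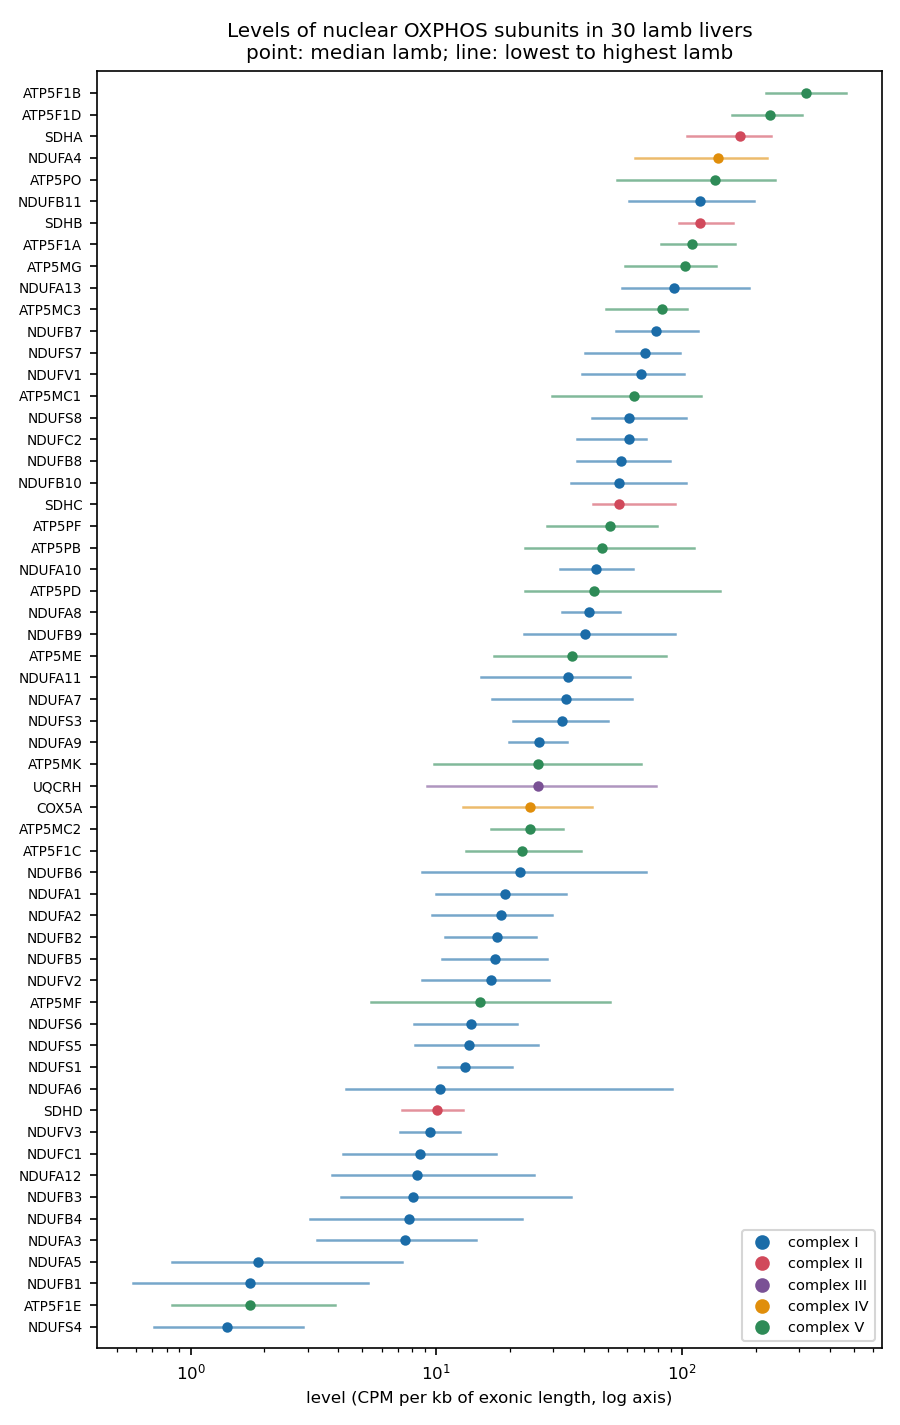
Level of 58 of the 59 tested subunits in CPM per kilobase of exonic length (log axis), coloured by complex. The point is the median of 30 lambs and the line runs from the lowest to the highest lamb. Levels run from 1.40 for NDUFS4 to 320.7 for ATP5F1B, and NDUFA6 has one of the longest lines.

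Lambs of 1 group differed from each other more at some subunits than at others. The pooled SD within groups on the log2 scale ran from 0.166 for SDHD to 0.861 for ATP5MF, with a median of 0.40 beside 0.42 over all tested genes. The accessory subunits of complex I had a median SD of 0.42 and the core subunits one of 0.31. The widest spread was that of NDUFA6 (0.80) in complex I, SDHA (0.34) in complex II and ATP5MF in complex V. In complex IV it was that of NDUFA4 (0.57), 1 of only 2 genes tested. UQCRH (0.72) was the only gene of complex III. Without biosolids male 8778, an alternative chosen after the data were seen, the SD of NDUFA6 was 0.48 and the widest in complex I was that of NDUFB6 (0.62).

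The subunits of a lamb tended to lie on the same side of their group medians. In control females, 54 of 59 were above the median in lamb 8378 and 52 were below it in lamb 8313. Among biosolids females, 54 were above in lamb 8653, and 49 and 48 were below in lambs 8731 and 8733. In control males, 51 were above in lamb 8408 and 46 in lamb 8364, while 55 of 59 were below in biosolids male 8695 and 48 above in biosolids males 8764 and 8778. In lamb 8778 the deviation was larger at accessory subunits of complex I (median 0.88 on the log2 scale) than at core subunits (0.42). Other gene lists had some of the same lambs at their ends. The mean over mitochondrial ribosomal proteins was lowest in 8313 and highest in 8378 among control females. Among biosolids males it was lowest in 8695 and highest in 8778. For cytosolic ribosomal proteins 8313 was again lowest and 8778 highest in these groups. Enzymes of the tricarboxylic acid cycle had other control females at the ends (8360 and 8245). The same counts over all tested genes were not made.

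The mean log2 CPM over the 59 subunits summarises this. It was 5.10 ± 0.28 in control females and 5.15 ± 0.23 in biosolids females (SD, n = 8 each), 4.71 ± 0.22 in control males and 4.95 ± 0.45 in biosolids males (SD, n = 7 each). Control females ran from 4.53 (lamb 8313) to 5.45 (lamb 8378) and control males from 4.48 (lamb 8394) to 5.03 (lamb 8364), so that the groups overlapped. The highest value of all 30 lambs was the 5.66 of biosolids male 8778 and the lowest the 4.42 of biosolids male 8695. In whole liver, fewer cells of a type and less RNA per cell cannot be told apart.

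**Figure D2:**
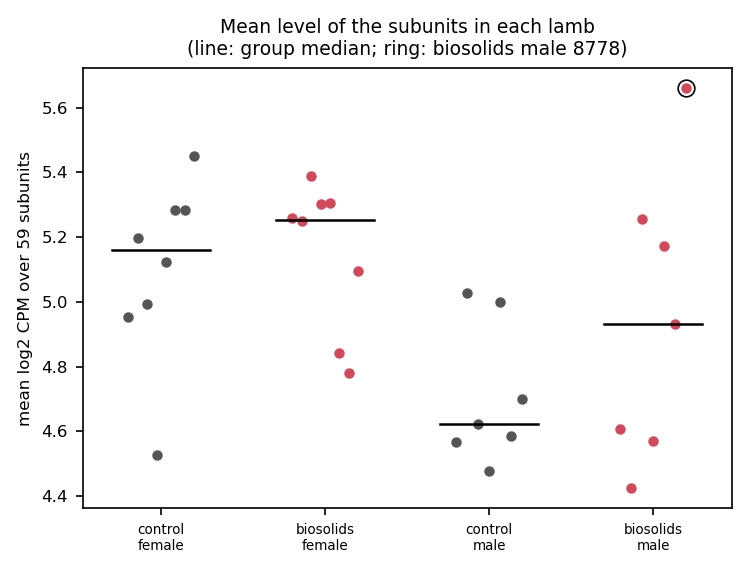
Mean log2 CPM over the 59 subunits in each lamb, by group, with the group median as a line. Control males sit lowest as a group (4.48 to 5.03), and biosolids male 8778 (ringed) is the highest lamb at 5.66.

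The first comparison asked whether exposure altered the subunits in female lambs. Biosolids and control females were close at nearly every subunit: 55 of 59 log2 fold changes lay within 0.2 of zero, and the median was 0.03 beside -0.02 over all tested genes. A higher mean in exposed females was fitted for 39 subunits and a lower mean for 20, where 45.9% of all 17840 tested genes were higher. In the quasi-likelihood test of edgeR, adjusted by Benjamini-Hochberg over all genes, 0 of 59 passed at 0.05 (0.0% of all genes) and each adjusted p was 1.0. An unadjusted p under 0.05 was reached by 0 of 59, where 1.5% of all genes reached it on the higher side and 2.15% on the lower. The direction rested on single lambs: without control female 8313 22 subunits were higher, 37 lower, and the median was -0.04, and without biosolids female 8653 it was -0.005. Without control female 8378 the median was 0.07, and without control female 8263 it was 0.05 (40 higher, 19 lower).

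NDUFC1, a small accessory subunit in the membrane arm of complex I (chromosome 17, 18448404 to 18454998, + strand), had the largest difference. Its lowest, median and highest lambs were at 15.1, 30.5 and 50.6 CPM in control females and at 14.0, 43.8 and 52.6 CPM in biosolids females. The exposed group held both the lowest lamb, 8733, and the highest, 8714, so the ranges overlapped almost entirely. The fitted log2 fold change of NDUFC1 was 0.36 ± 0.26 (SE; edgeR adjusted p = 1.0).

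The 4 genes of complex II each had a slightly lower fitted mean in exposed females, from -0.05 for SDHC to -0.003 for SDHD on the log2 scale. SDHD lay between 87.0 and 127.5 CPM in control females (median 105.9) and between 95.5 and 124.7 CPM in biosolids females (median 105.3). Every biosolids female was inside the range of the control females. UQCRH, the hinge protein of complex III, had medians of 19.7 and 19.2 CPM in control and biosolids females and a log2 fold change of 0.03 ± 0.34. COX5A, a matrix-side subunit of complex IV, had medians of 18.0 and 20.1 CPM and a log2 fold change of 0.05 ± 0.15, and NDUFA4 one of 0.03 ± 0.26. In complex V, ATP5F1E had the largest value at 0.29 ± 0.27, and ATP5MC3 followed the same direction at 0.10 ± 0.13.

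In males, the exposed group had the higher fitted mean at 53 of 59 subunits and the lower at 6, where 51.3% of all tested genes were higher. The median log2 fold change was 0.25, beside 0.01 over all genes. By the same edgeR test 0 of 59 passed at an adjusted p of 0.05 (0.0% of all genes), and the smallest adjusted p was 0.816. An unadjusted p under 0.05 was reached by 9 subunits, all with the higher mean in exposed males, against 3.29% of all genes on that side and 2.15% on the other. These were NDUFB3, NDUFA12, NDUFS4, NDUFA1 and NDUFV2 of complex I and ATP5PD, ATP5PB, ATP5PF and ATP5F1C of the ATP synthase.

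This comparison rested in good part on biosolids male 8778, the library rich in ribosomal RNA. Without it 51 subunits were higher and 8 lower, the median was 0.14, and 1 subunit had an unadjusted p under 0.05. Without control male 8408, the male with the X-linked transcript, 55 were higher, the median was 0.32, and 14 had an unadjusted p under 0.05, with 0 calls. Leaving out other single lambs gave between 3 (control male 8394) and 21 (biosolids male 8695) such subunits, all higher in exposed males. With 2 surrogate variables in the model, which stand for unlabelled variation between libraries, the median was 0.06 (41 higher, 18 lower).

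NDUFB3 (chromosome 2, 203415216 to 203425520, + strand), an accessory subunit of the membrane arm of complex I, differed most. Its lowest, median and highest lambs were at 2.76, 3.14 and 4.07 CPM in control males and at 2.59, 4.61 and 22.4 CPM in biosolids males. The 4 exposed males 8735, 8764, 8770 and 8778 lay above every control male, and lamb 8695 lay below them all. The log2 fold change was 1.09 ± 0.36 (SE, edgeR adjusted p = 0.816) and 0.66 ± 0.30 without lamb 8778 (adjusted p = 0.995). The 22.4 CPM of lamb 8778 stood for 63 counts.

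NDUFA12, an accessory subunit of the matrix arm, also had lamb 8778 as its highest exposed male. It ran from 2.03 to 4.66 CPM in control males (median 3.26) and from 2.49 to 13.5 CPM in biosolids males (median 4.20). The groups overlapped, and lambs 8735, 8770 and 8778 were above all controls. The log2 fold change was 0.61 ± 0.25 (SE), and 0.30 ± 0.20 without lamb 8778. NDUFA6, a matrix-side accessory subunit (chromosome 3, 218902884 to 218912709, - strand), had medians of 4.01 CPM in control and 3.83 CPM in biosolids males, with a highest exposed lamb of 43.3 CPM, again 8778, on 122 counts. Its log2 fold change was 0.89 ± 0.47 with that lamb and -0.20 ± 0.26 without it, so 1 library set its direction.

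By role, the differences in males were uneven. In the ATP synthase, the 4 subunits of the peripheral stalk, the stator that holds the head still, had a median log2 fold change of 0.59, and the 4 other membrane subunits (ATP5ME, ATP5MF, ATP5MG and ATP5MK) one of 0.60. The 5 subunits of the head and central stalk had a median of 0.06 (from -0.15 to the 0.38 of ATP5F1C) and the 3 genes of the c ring one of 0.10. Without lamb 8778 these medians were 0.32, 0.24, 0.03 and 0.09. Complex I accessory subunits had a median of 0.27 and core subunits one of 0.14, which without lamb 8778 were both 0.14.

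ATP5PD, subunit d of the peripheral stalk (chromosome 11, 55732323 to 55737061, + strand), ran from 13.5 to 27.6 CPM in control males (median 18.7) and from 16.2 to 84.5 CPM in biosolids males (median 23.4). Lambs 8735, 8764 and 8778 were above all controls and the other 4 within their range. Its log2 fold change was 0.69 ± 0.26 (SE), and 0.28 ± 0.20 without lamb 8778. ATP5PB, subunit b of the same stalk, had medians of 32.6 and 55.4 CPM and a log2 fold change of 0.71 ± 0.29, which was 0.42 ± 0.27 without lamb 8778. ATP5F1B, in the head, had medians of 606.1 CPM in control and 604.7 CPM in biosolids males and a log2 fold change of 0.01 ± 0.14.

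In complex II, SDHA had a log2 fold change of -0.15 ± 0.18 and SDHC one of 0.09 ± 0.14, and the median over the 4 genes was 0.04. UQCRH had the value 0.63 ± 0.37, NDUFA4 0.48 ± 0.28 and COX5A 0.27 ± 0.17, and without lamb 8778 these were 0.25 ± 0.33, 0.32 ± 0.29 and 0.10 ± 0.15.

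**Figure D3:**
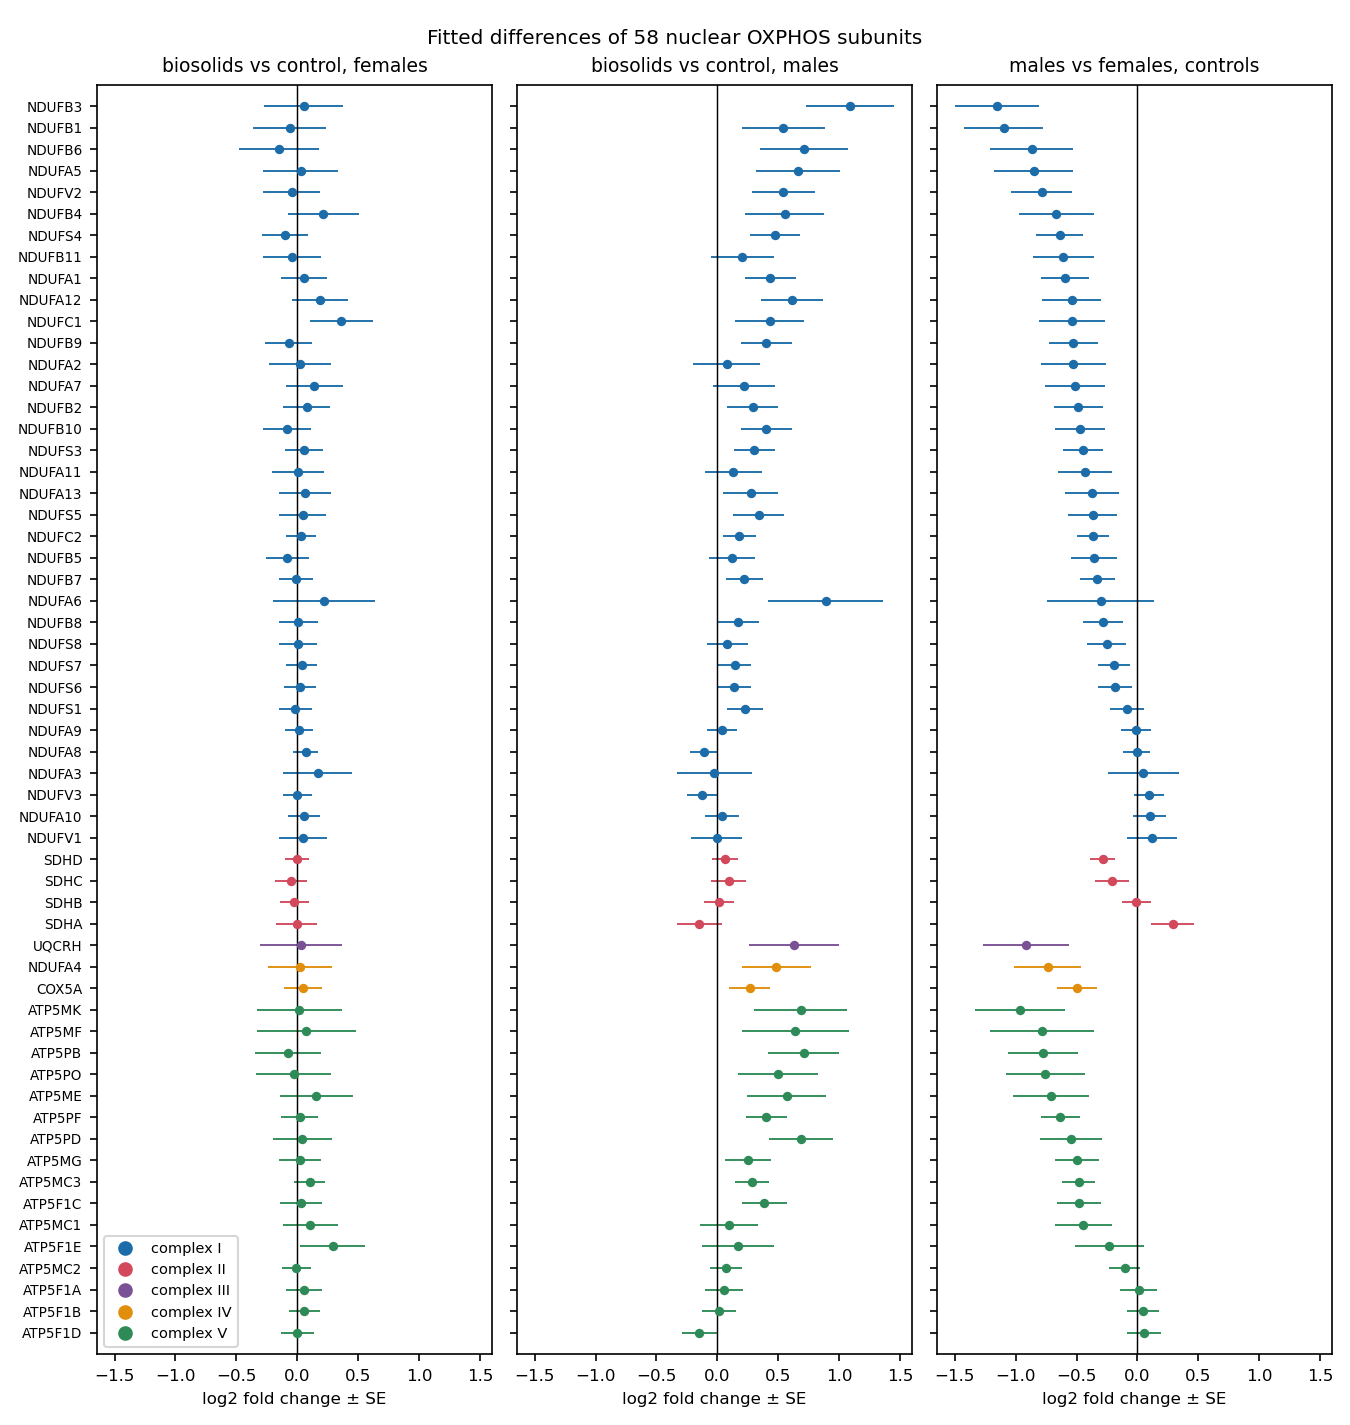
Fitted log2 fold change ± SE of 58 of the 59 tested subunits for exposure in females (left), exposure in males (middle) and males against females among controls (right), sorted within each complex by the right panel. Values in females gather at 0 (median of all 59 at 0.03), those in males lie mostly right of it (0.25), and those for sex in controls mostly left of it (-0.45). The middle and right panels share the control males.

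Averaged over both sexes, 54 subunits had a higher and 5 a lower fitted mean in exposed lambs (48.9% of all tested genes were higher), with a median of 0.16. The edgeR test called 0 of 59 (0.0% of all genes), and NDUFB3 (0.57 ± 0.24), NDUFA12 (0.40 ± 0.17) and NDUFC1 (0.40 ± 0.19) had an unadjusted p under 0.05, against 2.11% of all genes on that side and 2.2% on the lower. Without lamb 8778 the median was 0.09 and 0 subunits were under 0.05, where leaving out any other lamb gave 1 to 8.

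Whether exposure acted differently in the sexes was tested by an interaction term, which subtracts the exposure effect of females from that of males. It was positive for 48 subunits and negative for 11 (53.4% of all genes were positive), with a median of 0.22 beside 0.03 over all genes. In edgeR 0 of 59 passed (0.0% of all genes, smallest adjusted p = 0.951). NDUFB3, at 1.04 ± 0.48, and NDUFS4, a matrix-arm accessory subunit, at 0.57 ± 0.28, had an unadjusted p under 0.05, against 2.23% of all genes on that side and 1.41% on the negative one. The median was 0.05, with 40 positive and 19 negative, by limma voom with sample weights, and 0.04, with 36 positive and 23 negative, with 2 surrogate variables, each with 0 under 0.05. Without lamb 8778 the median was 0.10, with 42 positive, 17 negative and 0 under 0.05, and with any other lamb left out 0 to 8 were under 0.05. A different effect in males and females was therefore not shown for any single subunit.

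The comparison of males with females among the controls gave the largest median difference of the 6 comparisons. Control males had the lower fitted mean at 51 of 59 subunits (54.6% of all tested genes were lower) and the higher at 8, with a median log2 fold change of -0.45 beside -0.04 over all genes. In the edgeR test 0 of 59 passed, where 15 genes (0.0841%) passed in all, and the smallest adjusted p of a subunit was 0.198. An unadjusted p under 0.05 was reached by 30 subunits, all lower in males, against 11.1% of all genes on that side and 7.74% on the higher one. Other fits each called 1 subunit: ATP5PF by DESeq2 (adjusted p = 0.0469) and by limma voom with sample weights (0.0245), and NDUFB3 by edgeR on the control lambs alone (0.0484). Without control male 8408, 52 were lower with a median of -0.50, and without control female 8263, 54 with a median of -0.46 (29 with an unadjusted p under 0.05), all with 0 calls. Over every single lamb left out the unadjusted count ran from 22 to 39. With 2 surrogate variables 46 were lower, the median was -0.13, and 6 had an unadjusted p under 0.05.

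ATP5PF, coupling factor 6 in the peripheral stalk of the ATP synthase (chromosome 1, 131301928 to 131310343, + strand), had the smallest p. Its lowest, median and highest lambs were at 32.3, 51.3 and 58.2 CPM in control females and at 24.4, 33.2 and 40.4 CPM in control males. Of the females, 7 lay above every male, and only lamb 8313 fell in the range of the males. The means were 49.5 ± 8.87 CPM (SD, n = 8) and 31.9 ± 5.26 CPM (SD, n = 7), and the log2 fold change was -0.63 ± 0.16 (SE, edgeR adjusted p = 0.198).

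In complex I, NDUFB3 and NDUFB1 differed most, both of them accessory subunits of the membrane arm. NDUFB3 ran from 3.19 to 10.2 CPM in control females (median 7.62), against the 2.76 to 4.07 CPM of control males, a log2 fold change of -1.15 ± 0.34. NDUFB1 (chromosome 18, 54612248 to 54623412, - strand) ran from 0.721 to 1.995 CPM in control females (median 1.53) and from 0.427 to 0.896 CPM in control males (median 0.622), a log2 fold change of -1.10 ± 0.32. For each, 7 of 8 females were above every male; the exception was lamb 8313 for NDUFB3 and lamb 8245 for NDUFB1.

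NDUFS4 (chromosome 16, 25584080 to 25697482, - strand) had a log2 fold change of -0.64 ± 0.20, with 6 of 8 control females above all control males. Of the 29 accessory subunits 26 were lower in males with a median of -0.47, and of the 7 core subunits 6 were lower with a median of -0.19. NDUFV1, the core subunit that binds NADH, was the core gene with the opposite sign, at 0.12 ± 0.20.

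Complex II did not share one direction. SDHA ran from 280.4 to 467 CPM in control females (median 335) and from 330 to 501 CPM in control males (median 456), and males 8351 and 8408 were above every female. Its log2 fold change was 0.29 ± 0.18, the highest of all 59 subunits. SDHD had a log2 fold change of -0.29 ± 0.10, with medians of 105.9 CPM in control females and 89.7 CPM in control males and overlapping groups. SDHB, the iron-sulphur subunit, stood at -0.01 ± 0.12.

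The single complex III gene and both complex IV genes tested were lower in control males. UQCRH (chromosome 1, 20885822 to 20896099, + strand) had medians of 19.7 CPM in females and 8.06 CPM in males and a log2 fold change of -0.91 ± 0.35. COX5A (chromosome 18, 31428668 to 31439293, + strand) had medians of 18.0 and 15.1 CPM and a log2 fold change of -0.50 ± 0.16, with 6 of 8 females above every male. NDUFA4 had medians of 82.7 and 42.2 CPM and a value of -0.74 ± 0.27, but here all 7 males lay within the range of the females.

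The medians of the ATP synthase parts are given side by side. The control males here are also those of the exposure comparison in males. The 4 peripheral stalk subunits had a median log2 fold change of -0.69 and the 4 other membrane subunits one of -0.75, all 8 lower in males. The 3 c-ring genes had a median of -0.44, led by ATP5MC3 (chromosome 2, 134921550 to 134924640, + strand) at -0.48 ± 0.14, which ran from 39.9 to 69.7 CPM in control females and from 34.9 to 48.4 CPM in control males. The 5 subunits of the head and central stalk had a median of 0.01, with ATP5F1B at 0.05 ± 0.13 and ATP5F1D at 0.05 ± 0.14. They did not share one direction: 3 were higher and 2 lower in control males. The lowest was ATP5F1C at -0.48, with an unadjusted p under 0.05 by edgeR.

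**Figure D4:**
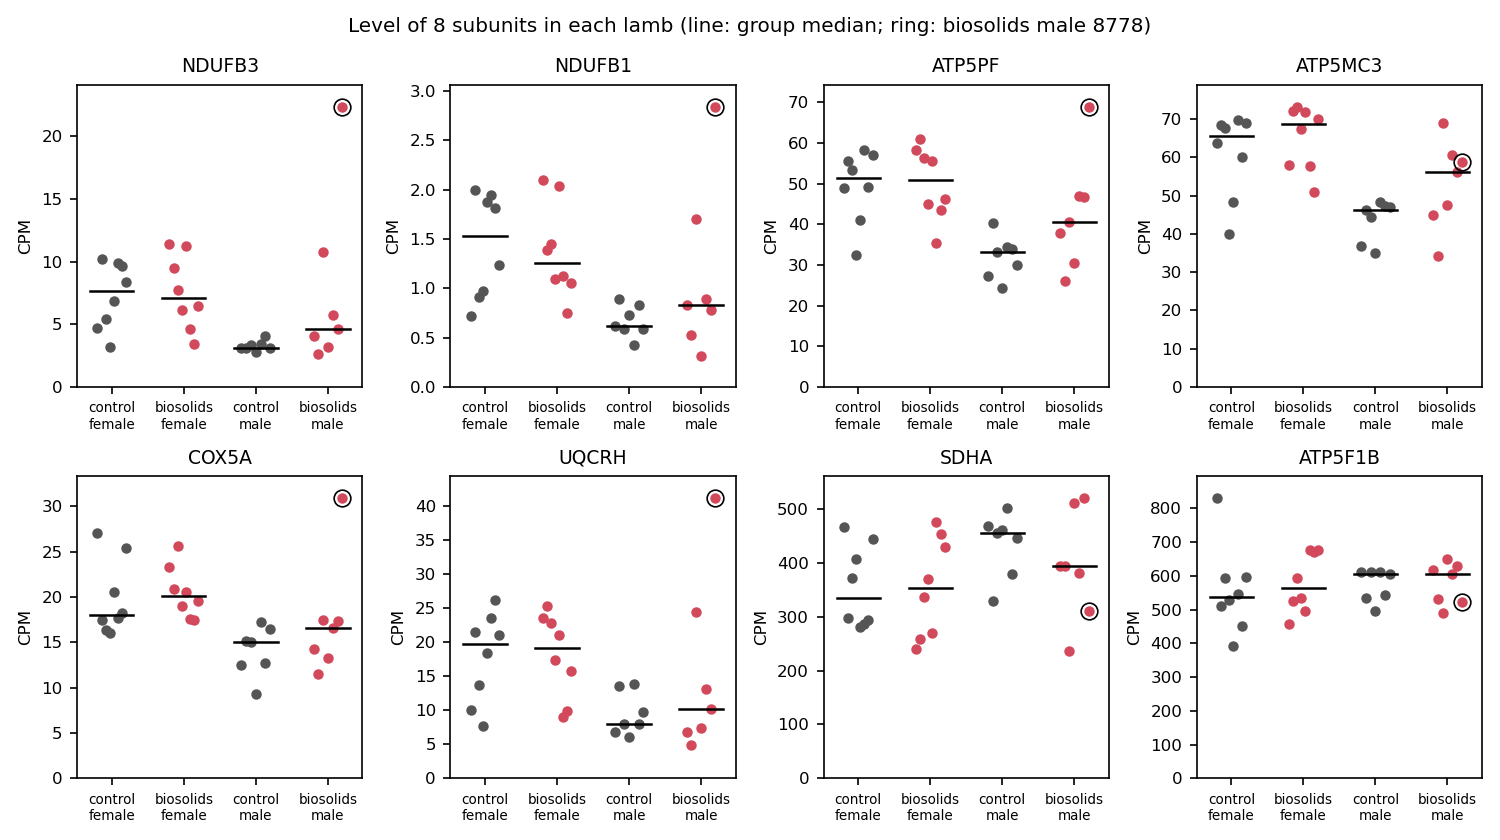
CPM of 8 subunits in each lamb, by group, with the group median as a line and biosolids male 8778 ringed. NDUFB3, NDUFB1, ATP5PF, ATP5MC3, COX5A and UQCRH have lower medians in control males than in control females (7.62 and 3.14 CPM for NDUFB3), SDHA has a higher one, and lamb 8778 is the highest biosolids male at NDUFB3, NDUFB1, ATP5PF, COX5A and UQCRH.

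The sexes were also compared among exposed lambs. Males had the lower fitted mean at 47 subunits and the higher at 12 (50.0% of all genes were lower), with a median of -0.16, and edgeR called 0 of 59 (17 genes, 0.0953%, in all; smallest adjusted p = 0.969). ATP5MC3 (-0.30 ± 0.14) and SDHD (-0.22 ± 0.10) had an unadjusted p under 0.05, against 2.46% of all genes on that side and 2.39% on the higher one. By limma voom with sample weights the median was -0.41 and 37 subunits had a lower mean at an unadjusted p under 0.05, where the same method gave -0.51 and 40 for the controls. Without lamb 8778, 53 were lower with a median of -0.32, and 13 had an unadjusted p under 0.05, while without biosolids male 8695 the median was -0.07 and 0 subunits were under 0.05, and without biosolids male 8762 the median was -0.09. In each of the 4 comparisons of a pair of groups, 0 of 59 subunits had CPM ranges that did not overlap. The shares of all genes whose groups did not overlap were 0.0% higher and 0.0% lower for exposure in females, 0.0392% and 0.0168% for exposure in males, 0.151% and 0.0617% for sex in controls, and 0.0504% and 0.0168% for sex in exposed lambs.

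Since the subunit genes are short, their differences were set beside those of all genes of like exonic length. For sex in controls, all 27 subunits under 750 bases were lower in males with a median of -0.53, and 620 of the 737 tested genes of that class were lower too, with a median of -0.44. The 13 subunits of 750 to 1499 bases had a median of -0.19 and all genes of that class one of -0.21, and for 1500 to 2999 bases both medians were -0.03. The 9 tested subunits of 3000 bases or more departed from their class, with a median of -0.54 and all 9 lower, beside -0.01 over 11408 genes. These were NDUFA5, NDUFC1, NDUFS1, NDUFS4, NDUFV2, SDHD, ATP5F1C, ATP5MC2 and ATP5MF. Their class follows the exonic length given with the counts, such as 9956 bases for SDHD and 3456 for ATP5MF. Whether their main transcripts in liver are that long was not tested, so some may belong to a shorter class.

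For exposure in males, the 27 short subunits were all higher, with a median of 0.40 beside 0.24 over all short genes. The 9 in the longest class by the given exonic length were all higher too, with a median of 0.43 beside 0.004. Without lamb 8778 these were 0.25 beside 0.16 and 0.20 beside 0.01. In females the medians of the 4 classes lay near zero for the subunits and for all genes. With a smooth trend on exonic length removed from each library, the median of all 59 subunits was -0.22 in place of -0.45 for sex in controls (45 lower, 14 higher) and 0.14 in place of 0.25 for exposure in males (53 higher), with 0 calls. Subunits with an unadjusted p under 0.05 by edgeR were then 21 in place of 30 for sex in controls. For exposure in males they were 11 in place of 9. What sets the trend on length was not tested.

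**Figure D5:**
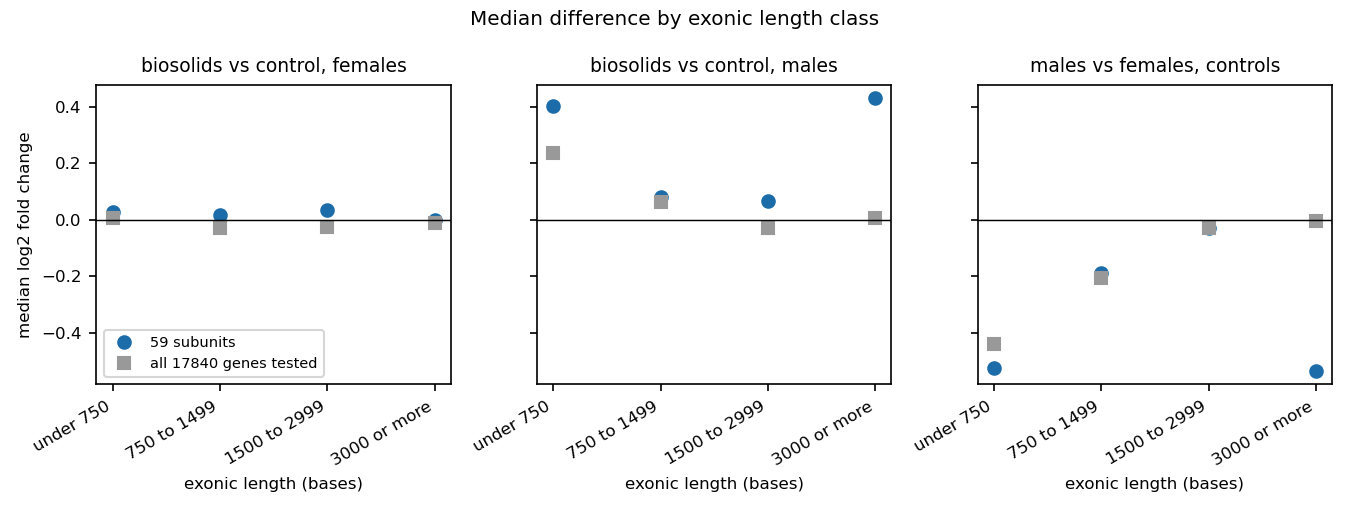
Median log2 fold change by class of exonic length for the 59 subunits (circles) and all 17840 tested genes (squares), in 3 comparisons. The length is the one given with the counts. For sex in controls both medians are below 0 under 750 bases (-0.53 and -0.44) and diverge at 3000 bases or more (-0.54 and -0.01).

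Other mitochondrial genes, regulators of respiratory genes and, outside the mitochondrion, the cytosolic ribosomal proteins were read from lists of pathway members. For sex in controls, the mitochondrial ribosomal proteins, which translate the mitochondrially encoded subunits, were lower in control males at 66 of 74 tested genes (median -0.29), the cytosolic ribosomal proteins at 74 of 75 (median -0.47), and the assembly factors of the complexes at 18 of 24 (median -0.17). Only 24 of the 48 assembly factors listed were found by symbol among the genes counted. The 13 mitochondrially encoded subunits were lower at 11 (median -0.18) and the import machinery at 18 of 24 (median -0.18). Enzymes of the tricarboxylic acid cycle, which feed the chain with NADH, were higher in control males at 11 of 17 (median 0.12), and transcriptional regulators of respiratory genes were split, with a median of 0.04 over 18. Of these lists 0 genes passed an adjusted p of 0.05 in edgeR, and the share of all genes lower in males was the 54.6% given above.

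For exposure in males the same lists had medians of 0.18 (63 of 74 higher) for mitochondrial ribosomal proteins, 0.39 (71 of 75) for cytosolic ribosomal proteins, 0.10 for assembly factors, 0.16 for mitochondrially encoded subunits, 0.08 for import and 0.01 for the tricarboxylic acid cycle and for the regulators. Without lamb 8778 the first pair became 0.10 and 0.21. In females they lay between -0.03 and 0.18, the highest being that of the mitochondrially encoded subunits, of which 12 of 13 had the higher mean in exposed females. None of these genes passed the adjusted p in either sex.

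Markers of some cell types are given beside these values, with 0 called for sex in controls or exposure in males. Hepatocyte markers had higher means in control males at 10 of 13 genes (median 0.38), and their summed level ran from 69970 to 128300 CPM in control females and from 100100 to 132200 CPM in control males. Markers of stellate cells and fibroblasts were higher at 9 of 10 (median 0.51; 227 to 389 CPM summed in control females, 411.5 to 667 CPM in control males), and those of T and NK cells lower at 6 of 6 (median -0.39; 13.5 to 57.7 and 10.4 to 32.1 CPM). Macrophage markers in control males did not share one direction, with CD14 at 0.70 ± 0.22 and C1QA at -0.84 ± 0.31. For exposure in males, hepatocyte markers were lower at 12 of 13 (median -0.18, and -0.19 without lamb 8778). For exposure in females, cholangiocyte markers were higher at 7 of 9 (median 0.50), with 0 calls. The highest mean of that list was in biosolids female 8649. The part of any cell type in the differences of the subunits was not tested.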

How the data were processed

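RNA of whole liver from 30 lambs was sequenced on TruSeq libraries, per the labels' protocols. The authors deposited 1 table of raw counts per gene, with 0 columns left without a lamb. Trimmomatic, STAR, featureCounts 1.5.0-p3, FastQC and MultiQC are named in the submitters' processing notes. The build and the strand setting are not given in the sources used here. Broken lines (25) were joined into 7 genes, none of them a subunit. Coordinates were identical to RefSeq ARS-UI_Ramb_v3.0 for all 28855 genes compared.

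Tests used edgeR 4.0.16 under R 4.3.3: filterByExpr on the 4 groups (17840 genes kept, minimum count 10), TMM scaling, and a robust quasi-likelihood fit with 1 mean per group over all 30 lambs (26 residual degrees of freedom, biological coefficient of variation 35.2%). Calls needed an adjusted p under 0.05 (Benjamini-Hochberg, over all tested genes). CPM use the TMM-scaled library sizes, log2 CPM a prior count of 2, and the SE of a log2 fold change comes from the F statistic. Total counts ran from 29.8 to 39.1 M in control females, 24.1 to 42.8 in biosolids females, 32.7 to 51.9 in control males and 18.7 to 43.3 in biosolids males. Each lamb was taken as independent. P-values measure the spread between lambs and are too small if some lambs of 1 group had the same dam. If a male and a female lamb had the same dam, they can be too large for the sex comparisons and the interaction. For exposure over both sexes they are then too small. Control and exposed tag numbers do not overlap, so a batch that follows the tags cannot be told apart from exposure.

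Subunits named with statistics were, per complex and comparison, those called or otherwise the 2 with the smallest p, the 3 highest and lowest by level per length, sister isoforms, and the widest spread in each complex; NDUFV1, the unadjusted hits and the long genes were named after their values were seen. The members and lists were chosen with earlier results of these data known, and lists were described by counts and medians without a test. Alternatives were other scalings, DESeq2 1.42.0, limma 3.58.1 voom with sample weights, no filter, 1 CPM in 15 libraries, 2 surrogate variables (sva 3.50.0), a length offset (loess, span 0.5), fits of the compared groups only, and leaving out each lamb. The scripts were tested on simulated data. Values of 1 subunit enter the counts and medians but are not reported here.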

Additional observations from a re-analysis of the deposited data

Results flagged for a closer look

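The highest and the lowest lamb of each group were set against the nearest other lamb of that group, over 100 combinations of a named subunit with a group and of the mean over subunits. Dixon's limit was passed in 9. Chance passes about 1 in 20 independent groups, which is not the rate for these, since some subunits were named for their spread or p and those of a lamb move together. In 6 of them the lamb was biosolids male 8778, whose library held the least counts outside ribosomal RNA: ATP5PD stood at 84.5 CPM against 33.6 CPM in the nearest lamb, COX5A at 30.9 against 17.5 CPM, NDUFA12 at 13.5 against 5.98 CPM, NDUFA6 at 43.3 against 6.22 CPM, NDUFB3 at 22.4 against 10.7 CPM and NDUFC1 at 58.2 against 34.0 CPM. Behind these values lay 238, 87, 38, 122, 63 and 164 counts, in the same order. The other 3 came from other lambs. ATP5F1B was at 829.5 CPM in control female 8245 against 597 CPM in the next lamb, SDHC at 100.4 CPM in biosolids female 8668 against 77.2 CPM, and ATP5MC2, on the low side, at 58.5 CPM in control male 8425 against 70.4 CPM.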

How the results depend on the processing

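Across the other scaling, filters, ribosomal RNA left out, DESeq2, limma voom, surrogate variables, length offset, fits of the compared groups and single lambs left out, 0 subunits were called in each exposure comparison, the interaction and sex in exposed lambs. For sex in controls the count was 1 by DESeq2, 1 by limma voom and 1 in the fit of the control lambs alone, against 0, and 0 to 0 with single lambs left out, where the smallest adjusted p was 0.0853 without control female 8245, 0.0752 without control female 8313 and 0.0953 without control male 8364. With 2 surrogate variables the median for sex in controls was -0.13 in place of -0.45 and that for exposure in males 0.06 in place of 0.25, SDHA had -0.043 for sex in controls and UQCRH -0.077 for exposure in males, both of the opposite sign; the cause was not tested. With single lambs left out the median ran from -0.04 to 0.07 for exposure in females, 0.14 to 0.34 in males, 0.09 to 0.21 over both sexes, 0.10 to 0.29 for the interaction, -0.54 to -0.40 for sex in controls and -0.32 to -0.07 for sex in exposed lambs.

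Of 405 values of 27 chosen fold changes with single lambs left out, 18 changed sign, all for exposure in females: COX5A ran from -0.004 to 0.123, NDUFA4 from -0.086 to 0.117, UQCRH from -0.084 to 0.129, SDHB from -0.067 to 0.041 and SDHC from -0.118 to 0.061. Outside those 27, NDUFA6 for exposure in males changed sign without biosolids male 8778. No paired analysis was possible because litters or other pairs of lambs are not given in the sources used here. Low counts limit NDUFB1, ATP5F1E and NDUFA4L2, and in biosolids male 8778 the weaker subunits, such as ATP5F1E with 2 counts and NDUFB1 with 8.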
